A study of Rattus norvegicus with 6 samples.

Results

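The RNA-binding proteins described here are the polypyrimidine tract binding proteins Ptbp1 and Ptbp2, the ELAVL proteins Elavl1, Elavl2, Elavl3 and Elavl4, the CELF proteins Celf1 and Celf2, Nova1, and the poly(A)-binding protein Pabpc4. The genes were chosen by family, with Ptbp2 and Pabpc4 selected on their signals in these same 6 arrays. Every probe set that the platform annotation gives to 1 of these 10 genes was taken, and these were 22 of the 31042 probe sets tested, for 9 of the 10 genes. The annotation used here lists no probe set under the single symbol Nova1, which is therefore only named. RNA came from the rat insulinoma line 832/13 INS-1, a clone of insulin-secreting β-cells grown in 11 mM glucose and used between passages 7 and 25. Cells electroporated with COUP-TFII siRNA (COUP-TFII depleted cells, 3 arrays) were compared with cells electroporated with a scrambled siRNA (control cells, 3 arrays), and the methods give 48 h of culture after electroporation. All 6 arrays therefore come from 1 tumour line that had been electroporated, and the labels call the 3 arrays of a group biological replicates without saying how the cultures were separated.

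Proteins of these families bind pre-mRNA and mRNA and set how a transcript is spliced, how long it lasts and how well it is translated. Ptbp1 binds pyrimidine-rich RNA and represses many exons, and it lowers Ptbp2 by skipping a Ptbp2 exon so that the shortened mRNA is degraded. During neuronal differentiation in the mouse Ptbp1 is switched off and Ptbp2 appears, and neuronal exons are then included. Elavl1 (HuR) is found in most cells, whereas Elavl2 (HuB), Elavl3 (HuC) and Elavl4 (HuD) are mostly neuronal, and all of them bind AU-rich RNA and tend to stabilize it. Celf1 and Celf2 bind GU-rich RNA, Nova1 is a splicing factor of neurons that β-cells also make, and Pabpc4 coats poly(A) tails. β-Cells share many transcripts with neurons, and Ptbp1 and Elavl4 have both been linked to insulin mRNA there. These roles are background and were not measured here.

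Each transcript is read by at least 1 set of short oligonucleotide probes, and the signal of a probe set is a MAS5 intensity on a linear scale. Signals of different probe sets are not on a common scale, so no gene's level is set against that of another. The 27 Bacillus control probe sets, which have no rat transcript to bind, gave no signal above 20.7, and a probe set with both group means at or below that signal is called dim, which applied to 2 of the 22. Nr2f2, the gene for COUP-TFII, read 47.0, 27.7 and 23.8 in COUP-TFII depleted cells and 182, 235 and 179 in control cells at its brightest probe set 1389554_at (log2 fold change -2.65, SE, the standard error, 0.30), whose adjusted p by limma was 0.404 and 0.0185 with the replicate number as a block. Its probe set 1370063_at had -1.71 (SE 0.32, adjusted p = 0.316 from limma with the block) without overlap of the groups. The dim 1395863_at had -0.37 (SE 0.56) with overlapping groups. None of the 8 measured β-cell markers, Ins1 and Iapp among them, and none of the 6 neuron markers was dim, while 4 of 4 measured fibroblast and 4 of 4 acinar and duct markers were dim. Of the other lists 2 of 3 alpha cell, 1 of 3 delta and PP cell, 2 of 3 glia, 1 of 2 endothelium and 1 of 3 leukocyte markers were not dim. Summed over the neuron markers the signal was 855 to 1345 in COUP-TFII depleted cells and 785 to 1089.8 in control cells. Brighter probe sets weigh most in this sum, whose part in the values below was not tested. Gcg (glucagon), an alpha cell marker, read 8056, 4789 and 817 in COUP-TFII depleted cells and 6313, 3397 and 394 in control cells, lowest on the replicate 3 array of each group.

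Ptbp2 was the member whose signal was higher in COUP-TFII depleted cells on every array. Its only probe set, 1375844_at, read 126, 85.3 and 85.6 in COUP-TFII depleted cells and 40.8, 41.5 and 62.8 in control cells, in the order of replicates 1, 2 and 3. The groups did not overlap, and the highest control array, replicate 3, lay 0.45 on the log2 scale below its same-numbered partner, against 1.63 and 1.04 in the other pairs. Mean signals were 99.0 ± 23.5 in COUP-TFII depleted cells and 48.3 ± 12.5 in control cells (SD, n = 3 each), a log2 fold change of 1.04 (SE 0.29), or 0.84 with log2(signal + 16). With 1 array left out the log2 fold change ran from 0.85 without COUP-TFII siRNA replicate 1 to 1.24 without scrambled siRNA replicate 3. Because Ptbp2 was selected on this difference, it is a description with no test.

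Ptbp1, the protein that represses Ptbp2 splicing in other cells, differed little between the groups. The probe set 1367931_a_at, whose suffix marks probes shared by several transcripts of the gene, read 1391, 1618 and 1436 in COUP-TFII depleted cells and 1372, 1587 and 1397 in control cells. Replicate 2 was the highest array in both groups, and the groups overlapped almost entirely. Across all probe sets 13.4% were higher in every same-numbered pair. Among the members 2 of 22 were, Ptbp2, which was selected on its difference, and Ptbp1. The Ptbp1 pairs differed by only 0.020, 0.028 and 0.040 on the log2 scale. The log2 fold change was 0.029 (SE 0.13), and its sign turned without COUP-TFII siRNA replicate 2 (-0.036) and without scrambled siRNA replicate 1 (-0.010). The signal of this probe set does not tell apart spliced forms of Ptbp1, and no measure of exon use was made. Ptbp3, the third gene of the family and no member here, read 1568, 956 and 2014 in COUP-TFII depleted cells and 2530.2, 1035 and 1716 in control cells at 1382005_at, lowest on both replicate 2 arrays and with overlapping groups.

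Pabpc4, which binds poly(A) tails in the cytoplasm, was lower in COUP-TFII depleted cells at both of its probe sets. The signal of 1371777_at was 1276, 1301 and 1470.4 in COUP-TFII depleted cells and 1798, 2023 and 1826 in control cells. These groups did not overlap, and means of 1349 ± 106 in COUP-TFII depleted cells and 1882 ± 123 in control cells (SD, n = 3 each) gave a log2 fold change of -0.48 (SE 0.13) and a ratio of 0.717. The second probe set, 1382443_at, read 249, 174 and 337 in COUP-TFII depleted cells and 335, 239 and 398 in control cells. Here the groups overlapped, with replicate 2 lowest and replicate 3 highest in both, and the COUP-TFII depleted array was the lower one of each same-numbered pair. The log2 fold change was -0.37 with an SE of 0.27 unpaired and of 0.097 with the replicate number as a block. With 1 array left out the log2 fold change ran from -0.54 to -0.43 for 1371777_at and from -0.60 to -0.13 for 1382443_at, the last without COUP-TFII siRNA replicate 2. The lower signal of 1371777_at was also known when Pabpc4 was chosen.

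**Figure D1:**
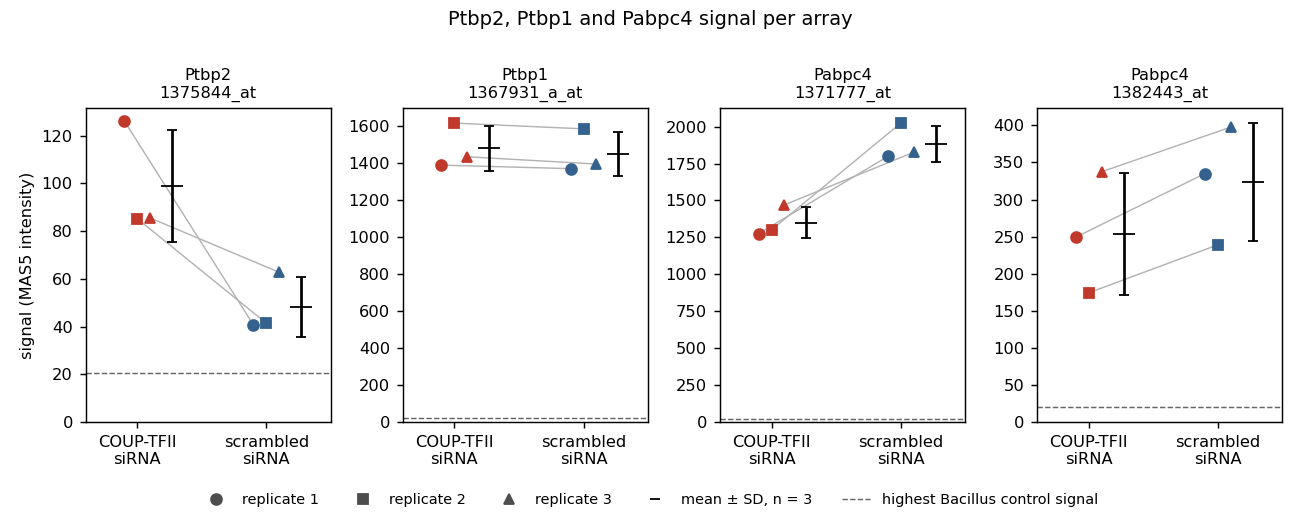
Signal per array (MAS5 intensity, linear axes from 0) of Ptbp2, Ptbp1 and both Pabpc4 probe sets after COUP-TFII siRNA (red) and scrambled siRNA (blue). Symbols mark the replicate, grey lines join arrays with the same number, black bars are mean ± SD (n = 3) with 20.7, the top Bacillus reading, as the dashed line; Ptbp2 groups do not overlap (85.3 and above against 62.8 and below), Ptbp1 groups do, and all Pabpc4 lines slope up towards scrambled siRNA.

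COUP-TFII is a nuclear receptor that binds direct repeats of AGGTCA, so the start regions of these genes were read for that half-site. RefSeq (GRCr8) gave a window of 300 bases around the gene start for 9 of the 10 genes, Celf2 being the one not in the table. The windows of Ptbp2 and Pabpc4 are shown because these members stood apart in the arrays, and those of Elavl3 and Elavl4 because they hold a half-site. Bases are written 5′ to 3′ on the gene's strand, and capitals mark a match to AGGTCA or to the related GGGTCA on either strand.
Ptbp2, chr2:210558228-210558527, minus strand: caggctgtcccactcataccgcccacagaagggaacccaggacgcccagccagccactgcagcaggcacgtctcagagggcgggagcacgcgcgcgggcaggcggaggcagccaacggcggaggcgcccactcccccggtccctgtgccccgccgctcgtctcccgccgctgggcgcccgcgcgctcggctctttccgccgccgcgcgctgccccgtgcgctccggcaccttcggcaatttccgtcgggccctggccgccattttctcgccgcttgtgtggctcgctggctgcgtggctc
Pabpc4, chr5:140848542-140848841, plus strand: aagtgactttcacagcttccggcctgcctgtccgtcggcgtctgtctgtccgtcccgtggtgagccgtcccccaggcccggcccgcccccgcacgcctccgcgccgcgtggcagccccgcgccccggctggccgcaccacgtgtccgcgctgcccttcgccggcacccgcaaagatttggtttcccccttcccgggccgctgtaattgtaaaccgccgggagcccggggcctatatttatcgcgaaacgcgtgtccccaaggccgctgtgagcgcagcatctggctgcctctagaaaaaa
Elavl3, chr8:28858964-28859263, minus strand: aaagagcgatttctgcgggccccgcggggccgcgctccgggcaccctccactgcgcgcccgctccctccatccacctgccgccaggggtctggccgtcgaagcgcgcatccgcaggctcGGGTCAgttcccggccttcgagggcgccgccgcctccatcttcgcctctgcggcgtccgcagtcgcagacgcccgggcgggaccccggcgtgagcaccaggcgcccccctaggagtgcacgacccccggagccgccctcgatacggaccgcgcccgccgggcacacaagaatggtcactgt
Elavl4, chr5:130367614-130367913, minus strand: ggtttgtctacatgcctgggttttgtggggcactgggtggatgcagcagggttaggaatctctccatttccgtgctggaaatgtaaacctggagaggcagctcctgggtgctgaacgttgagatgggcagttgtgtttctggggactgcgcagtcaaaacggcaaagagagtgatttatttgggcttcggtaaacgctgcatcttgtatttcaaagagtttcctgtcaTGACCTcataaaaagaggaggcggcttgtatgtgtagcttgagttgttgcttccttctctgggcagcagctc
Neither half-site occurs in the windows of Ptbp2 and Pabpc4, which says only that these letters are not in them. Of the 9 windows 1 holds AGGTCA, that of Elavl4 at position 229 on the opposite strand, and 1 holds GGGTCA, that of Elavl3 at position 120. Among all 33469 windows of this length 16.2% hold AGGTCA and 13.8% hold GGGTCA. The direct repeat of AGGTCA with 1 base between its copies, searched on both strands and itself a match to AGGTCA, is in 0.0538% of them and in 0 of the 9. A match is a run of letters and was not measured as a binding site.

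Of the 22 probe sets 0 had an adjusted p under 0.05 in limma without pairing, as did 0% of all probe sets. With the replicate number as a block 0 passed, against 0.0161% of all, and 0 passed by the methods' t-test after Benjamini-Hochberg adjustment. At an unadjusted p up to 0.05 limma gave 1 higher probe set, that of Ptbp2, and 1 lower, Pabpc4 1371777_at, with 0.973% higher and 1.34% lower among all probe sets, and with the block both Pabpc4 probe sets were lower (3.51% of all) and Ptbp2 was higher (2.72% of all). Groups that did not overlap were found for Ptbp2 and Pabpc4 1371777_at, 1 in each direction, with 3.25% higher and 3.49% lower among all probe sets. Because these genes were selected on that difference, their counts were fixed by the choice and nothing is read from them. By mean 8 of the 22 were higher and 14 lower, with a median log2 fold change of -0.040, against -0.0031 over all probe sets. With 3 arrays in each group the smallest two-sided p of an exact permutation test is 0.1, and the number of arrays limits the precision throughout.

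**Figure D2:**
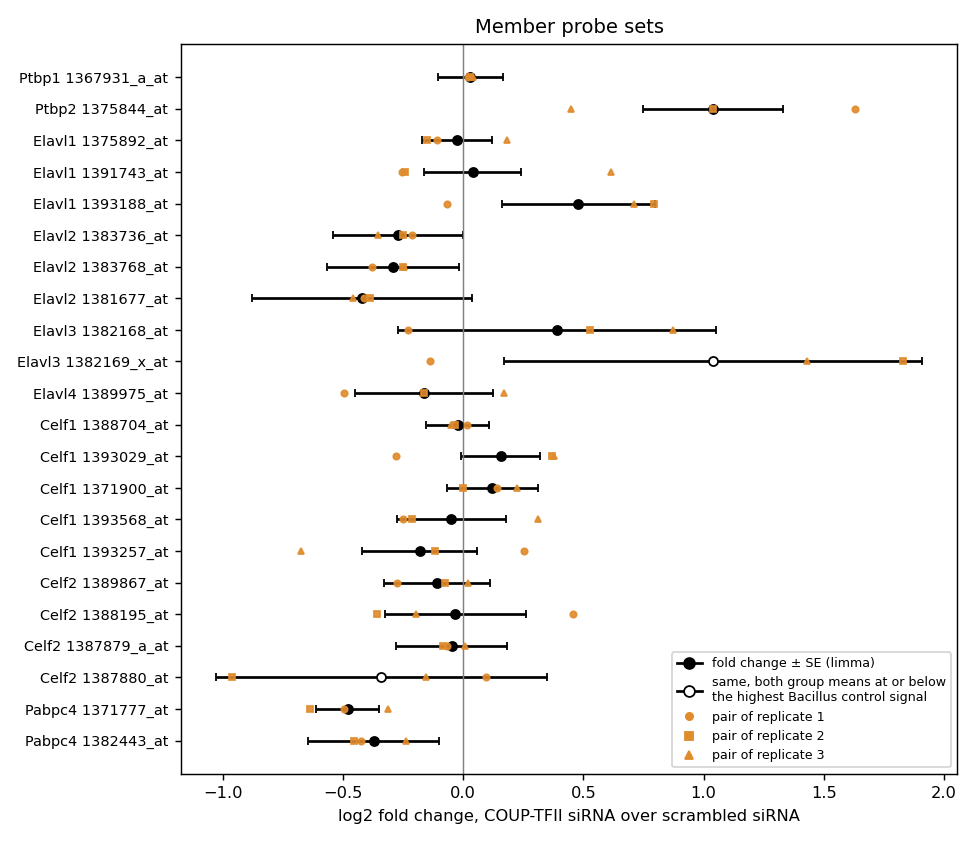
log2 ratio of COUP-TFII siRNA to scrambled siRNA for the 22 member probe sets, with the limma SE (black; open where both group means lie at or below 20.7), and the difference within each same-numbered pair (orange). Most bars cross 0, that of Ptbp2 lies at 1.04 with its pairs at 0.45 to 1.63, and the pairs of both Pabpc4 and all Elavl2 probe sets lie below 0.

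Without pairing, the Elavl2 differences were about the size of their SE. With the replicate number as a block the SEs were smaller, 0.12 for 1383736_at, 0.14 for 1383768_at and 0.33 for 1381677_at. All 3 Elavl2 probe sets read lower after COUP-TFII siRNA in each of the 3 pairs of same-numbered arrays. The brightest, 1383736_at, read 158, 91.9 and 125 in COUP-TFII depleted cells and 184, 109 and 159.9 in control cells, so that the groups overlapped. The log2 fold changes were -0.27 (SE 0.27) for 1383736_at, -0.29 (SE 0.28) for 1383768_at and -0.42 (SE 0.46) for 1381677_at, and the adjusted p was 1 for each by limma and 0.797, 0.797 and 0.855 in that order with the block. Leaving out single arrays gave values from -0.49 to -0.068 for 1383736_at and from -0.75 to -0.11 for 1381677_at, nearest to 0 without COUP-TFII siRNA replicate 2, and from -0.50 to -0.089 for 1383768_at, nearest to 0 without scrambled siRNA replicate 1. The 3 probe sets followed each other over the 6 arrays, with pairwise correlations of 0.85 to 0.98, as probe sets of 1 gene on shared arrays. Across all probe sets 14% were lower in every same-numbered pair, and among the members 5 of 22 were, 3 of them probe sets of Elavl2 and 2 of Pabpc4.

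Elavl4, which binds AU-rich mRNAs in neurons, showed no such order. Its probe set 1389975_at read 139, 105 and 201 in COUP-TFII depleted cells and 196, 117 and 179 in control cells, with 1 of 3 pairs higher. The log2 fold change was -0.16 (SE 0.29, adjusted p = 1 from limma), and it was 0.063 without COUP-TFII siRNA replicate 2. Elavl3 was read by 2 probe sets. The brighter, 1382168_at, had 47.1, 16.6 and 45.7 in COUP-TFII depleted cells and 55.3, 11.5 and 24.9 in control cells, so both replicate 2 arrays lay below the Bacillus limit. Its log2 fold change was 0.39 (SE 0.66), and -0.17 without scrambled siRNA replicate 2. The dim 1382169_x_at, whose suffix marks probes that may bind other transcripts, had a log2 fold change of 1.04 (SE 0.87), with signals of 6.36, 12.4 and 39.3 in COUP-TFII depleted cells and 7.00, 3.49 and 14.6 in control cells. Its groups overlapped, and without COUP-TFII siRNA replicate 3 the log2 fold change was 0.32.

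Elavl1, the member of the family found in most cells, was measured well above background. Its brightest probe set, 1375892_at, had signals of 778, 881 and 1026 in COUP-TFII depleted cells and 839.6, 979 and 903 in control cells. The groups overlapped, with a log2 fold change of -0.026 (SE 0.15), and that of 1391743_at was 0.039 (SE 0.20). The third probe set, 1393188_at, stood apart from both with 63.3, 81.6 and 124 in COUP-TFII depleted cells and 66.3, 47.1 and 75.7 in control cells, a log2 fold change of 0.48 (SE 0.32, adjusted p = 1 from limma) with overlapping groups. Over the 6 arrays the correlations between Elavl1 probe sets ran from 0.25 to 0.85. Whether 1393188_at reads another part of the transcript is not given in the sources used here.

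The neuronal ELAVL genes read low on the replicate 2 arrays of both groups. For Elavl2, Elavl3 and Elavl4 the brightest probe sets were lowest on both replicate 2 arrays, below the 4 other arrays. The dim Elavl3 1382169_x_at did not follow, at 12.4 in replicate 2 against 6.36 in replicate 1 of COUP-TFII depleted cells. Correlations between the brightest probe sets of Elavl2, Elavl3 and Elavl4 over the 6 arrays were 0.73 to 0.76, with the low replicate 2 arrays included. With Elavl1 the correlations were -0.48, -0.38 and 0.14, in the order of Elavl2, Elavl3 and Elavl4, over the same 6 arrays and with no test. A limma fit of replicate 2 against replicates 1 and 3, with the siRNA as the other term and chosen after these values were seen, gave log2 differences of -0.63 (SE 0.17, adjusted p = 0.0695) for Elavl2 1383736_at, -1.58 (SE 0.44, adjusted p = 0.0838) for Elavl3 1382168_at and -0.68 (SE 0.18, adjusted p = 0.0698) for Elavl4. Of the 22 members 1 passed, Pabpc4 1382443_at at -0.67 (adjusted p = 0.0424, and 0.0644 after quantile normalization), lower in replicate 2, and 0 passed in the higher direction, against 4.66% lower and 0.834% higher of all probe sets. After quantile normalization 0 of the 22 passed, against 3.37% lower and 0.519% higher of all. Low replicate 2 signals were not particular to ELAVL genes, as other RNA-binding proteins, from lists described below, had them in the first fit. Of 18 splicing regulators, 25 hnRNPs and PTB partners and 32 poly(A) and stability proteins, 3 each passed, all lower. Their list medians were -0.090, 0.014 and 0.0028. Matr3 had -1.87, Mbnl2 -1.17 and Fmr1 -1.35 (adjusted p = 0.000122, 0.000534 and 0.00106 from limma). Both replicate 2 arrays lay below the 4 others for 7 of the 22, or 31.8%, against 18.1% of all probe sets, and 3 of these 7 belong to Elavl2 alone. They lay above the 4 others for 3 of the 22, Ptbp1, Celf1 1388704_at and Celf1 1371900_at, against 11.1% of all. Dcx (doublecortin), a neuron marker, was low on the same arrays, at 168 in COUP-TFII depleted and 159 in control cells, against 292 to 467 on the 4 others (log2 difference -1.15, adjusted p = 0.00790). Other neuron markers did not all follow. Map2 and Rbfox3 were also lowest on both replicate 2 arrays (-0.37 and -0.35), and Nefm had -0.64 without being lowest on both. Tubb3 was highest on both, at 246 in COUP-TFII depleted and 232 in control cells (0.30), and Nefl had 0.16. None of these other markers had an adjusted p under 0.05 by limma. The replicate 2 arrays also had the lowest medians over all probe sets, 31.2 in COUP-TFII depleted and 29.9 in control cells, and their part in these values was not tested beyond the quantile normalization, after which the differences were -0.52, -1.20 and -0.59 in the order of Elavl2, Elavl3 and Elavl4.

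**Figure D3:**
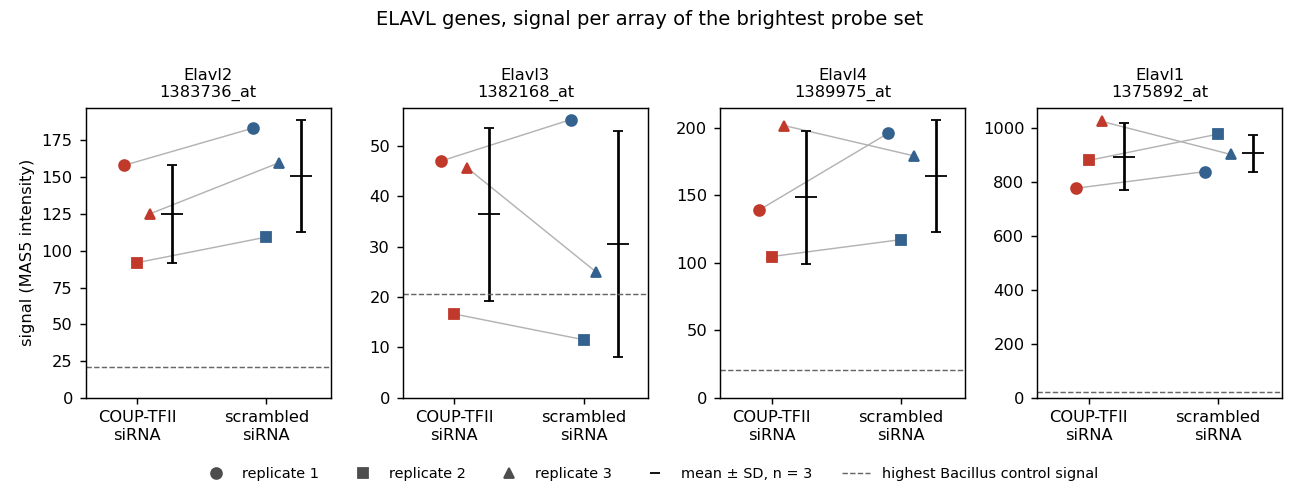
Signal per array (MAS5 intensity, linear axes from 0) of the brightest probe set of Elavl2, Elavl3, Elavl4 and Elavl1 after COUP-TFII siRNA (red) and scrambled siRNA (blue). Symbols mark the replicate, grey lines join arrays with the same number, black bars are mean ± SD (n = 3) with 20.7, the top Bacillus reading, as the dashed line; the replicate 2 squares are lowest in both groups for Elavl2, Elavl3 and Elavl4 but not for Elavl1.

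Celf1, a regulator of splicing and mRNA decay, was read by 5 probe sets, of which 2 were higher and 3 lower by mean. The brightest, 1388704_at, read 1388, 1509.7 and 1316 in COUP-TFII depleted cells and 1373, 1546 and 1363 in control cells, which overlap, with a log2 fold change of -0.023 (SE 0.13). The log2 fold changes of all 5 lay between -0.18 and 0.16. The probe sets disagreed with each other, their correlations over the 6 arrays running from -0.80 to 0.80. Celf2 was read by 4 probe sets with log2 fold changes from -0.34, at the dim 1387880_at, to -0.033. Its brightest, 1389867_at, had 145, 131 and 199 in COUP-TFII depleted cells and 175, 138 and 197 in control cells, and replicate 3 was highest in both groups. The log2 fold change was -0.11 (SE 0.22, adjusted p = 1 from limma), and the direction turned without COUP-TFII siRNA replicate 2 (0.013) and without scrambled siRNA replicate 3 (0.0020). For 1387879_a_at the 6 arrays read 60.2 to 66.3, the narrowest spread of the Celf2 probe sets.

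Other RNA-binding proteins that act with the members were taken from lists, with the brightest probe set of each gene. None of their genes passed an adjusted p of 0.05 by limma, with or without the block. At an unadjusted p up to 0.05 limma gave 0 of them without pairing and 4 with the block, Mbnl1, Msi2, Cnot6 and Cnot6l, all lower (3.51% of all probe sets were lower at that limit). Among 18 measured neuronal and neuroendocrine splicing regulators 8 were higher and 10 lower by mean, with a median log2 fold change of -0.035, against -0.0031 for all probe sets. Celf3, a neuronal CELF protein, read 62.8, 66.8 and 77.2 in COUP-TFII depleted cells and 78.5, 88.9 and 81.3 in control cells, groups that did not overlap, with a log2 fold change of -0.27 (SE 0.22). Mbnl1, a muscleblind splicing factor, had -0.43 (SE 0.29) with overlapping groups, Msi2 had -0.34 and Srrm3 had 0.47. Of the 25 hnRNPs and partners of PTB 17 were higher by mean, with a median of 0.063 (50.4% of all probe sets were lower). Hnrnpf (0.15) and Hnrnpu (0.14) had groups that did not overlap. Raver1, a corepressor of Ptbp1, had -0.31 (SE 0.31). The 32 proteins of the poly(A) tail and mRNA stability were evenly divided, with 16 higher and 16 lower by mean. Among these Cnot6, a deadenylase, had a log2 fold change of -0.28 (SE 0.14) and groups that did not overlap. Such groups were found for 1 of 18, 2 of 25 and 1 of 32 genes of these lists. Among all probe sets 3.25% were higher and 3.49% lower without overlap.

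The mRNAs that these proteins act on were read in the same way. In the mouse, PTB proteins lower Dlg4 (PSD-95), Gabbr1, Vamp2, Sv2a and Kif5a by exon skipping or intron retention. All 5 of these genes were lower by mean in COUP-TFII depleted cells, with a median log2 fold change of -0.28 (50.4% of all probe sets were lower), and 0 passed an adjusted p of 0.05 by limma. At an unadjusted p up to 0.05 by limma Dlg4 passed without pairing (1.34% of all probe sets were lower at that limit). With the block Dlg4 and Vamp2 passed (3.51% of all were lower). The Dlg4 probe set 1395468_at read 201, 204 and 163 in COUP-TFII depleted cells and 301, 313 and 232 in control cells. The groups did not overlap (3.49% of all probe sets were lower without overlap), and the log2 fold change was -0.57 (SE 0.18, adjusted p = 1 from limma and 0.308 with the block). Vamp2, a synaptobrevin of secretory vesicles, read 107, 192 and 142 in COUP-TFII depleted cells and 148, 268 and 212 in control cells, lower in 3 of 3 pairs with overlapping groups. Its log2 fold change was -0.51 (SE 0.28). Gabbr1 had -0.27 and Sv2a -0.16, each lower in 3 of 3 pairs, and Kif5a -0.28 (SE 0.65), lower in 2. The Kif5a value is the median of the 5. Kif5a read 7.85, 36.9 and 32.6 in COUP-TFII depleted cells and 25.6, 19.9 and 33.2 in control cells. The lowest array of each group was below the Bacillus limit. The other Kif5a probe sets, both dim, had 0.74 (SE 0.73) and 0.68 (SE 0.65), higher in 3 of 3 pairs. With probe sets below the median signal left out, the brightest of Kif5a among them, the list median was -0.39. Over all 15 probe sets of these genes 12 were lower by mean, including all 9 that were not dim. In 3 of 3 pairs 7 were lower, against 14% of all probe sets. Several of the 7 read the same gene, and all share the same arrays. The list was chosen with earlier results of these data known, so nothing is read from these shares. The other Dlg4 probe sets, with log2 fold changes of -0.60, -0.19 and 0.36, had SEs of 0.53, 0.38 and 1.14. The median of the 5 genes was -0.63 with COUP-TFII siRNA replicate 2 left out and -0.46 with its replicate 3 left out, and it ran from -0.63 to -0.26 with 1 array left out.

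Insulin granule mRNAs, several of which Ptbp1 stabilizes in β-cells, did not share a direction. Of 10 measured genes 8 were higher by mean, with a median log2 fold change of 0.12, which was 0.0048 after quantile normalization. Ins1 had a log2 fold change of 0.20 (SE 0.23) and Ins2 of 0.21 (SE 0.33). The 2 lower genes were Ptprn2 and Scg2. Ptprn2, a phosphatase-like protein of the granule membrane, read 620.0, 675 and 784 in COUP-TFII depleted cells and 796, 993 and 948 in control cells, without overlap, a log2 fold change of -0.40 (SE 0.15, adjusted p = 1 from limma and 0.624 with the block). Scg2 had -0.96 and was the only gene of these lists past an adjusted p of 0.05, and only with the block (adjusted p = 0.0392 from limma). Among 10 measured mRNAs that ELAVL proteins bind 6 were higher and 4 lower by mean, with a median of 0.015. Of these 1 passed an unadjusted p of 0.05 by limma, Ccnd1 (cyclin D1) at -1.58 (SE 0.66), against 1.34% lower of all probe sets. Its signals in COUP-TFII depleted cells, 16.5, 40.3 and 5.87, reach below the Bacillus limit. The paper reports lower cyclin D1 after COUP-TFII siRNA at another probe set, by RT-qPCR and by immunoblot. Gap43, the best known target of Elavl4, had 0.10 (SE 0.14), and Cdkn1a had 0.14 (SE 0.17).

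**Figure D4:**
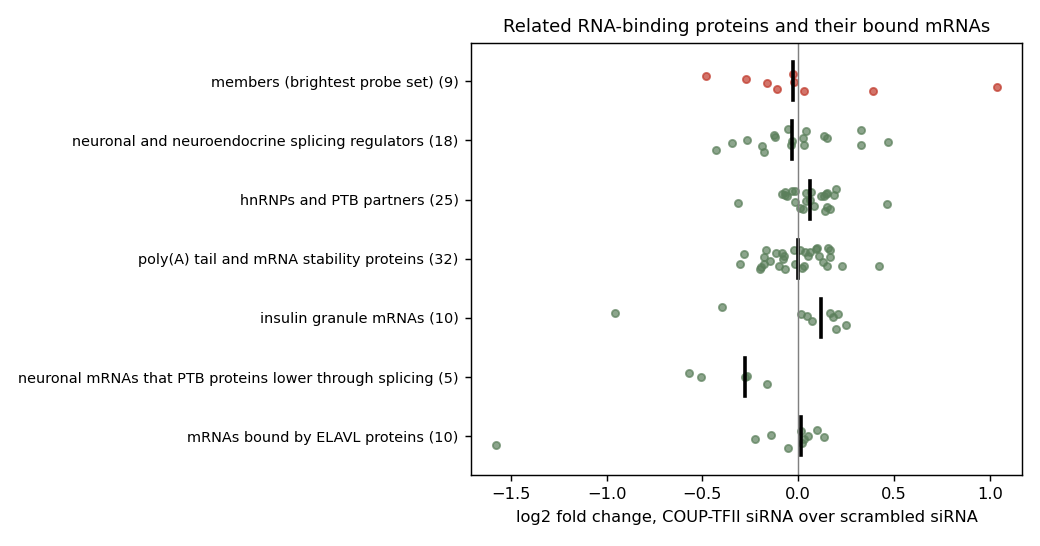
log2 ratio of COUP-TFII siRNA to scrambled siRNA for each gene, 1 probe set per gene, for the 9 measured members (red) and 6 lists of related RNA-binding proteins and of mRNAs (green), with the number of genes in brackets and vertical scatter for display only. Black bars are medians, which lie between -0.28 for the neuronal mRNAs that PTB proteins lower and 0.12 for insulin granule mRNAs, the second being 0.0048 after quantile normalization.

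The probe sets whose signals over the 6 arrays followed Ptbp2 most closely were those of Ppp1r7 (Pearson r = 0.98), Dok7 (0.98), F8 (0.98), Efcab2 (0.97) and Cyp2f4 (0.97), out of 12190 with a single symbol and a signal not below the median. For all 5 the groups did not overlap, as for Ptbp2 itself, against 3.25% of all probe sets that were higher without overlap. The ranking by likeness to Ptbp2 favours such groups, so nothing is read from this. Ppp1r7, a regulatory subunit of protein phosphatase 1, read 84.3, 76.8 and 80.6 in COUP-TFII depleted cells and 60.9, 59.5 and 69.7 in control cells, and its replicate 3 control array was the highest of its group, as for Ptbp2. The largest difference of the 5 was that of Dok7, with a log2 fold change of 0.71 (SE 0.30, adjusted p = 1 from limma). These correlations describe 6 arrays that share the siRNA groups.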

How the data were processed

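Total RNA of 6 cultures was labelled with biotin and hybridized to Affymetrix rat 230 2.0 arrays. Per the labels the authors processed the scans with MAS5 (version not given in the sources used here), and the deposited table gives each probe set a linear intensity on each array, after subtraction of background and scaling on reference probes. The table holds 31099 probe sets without detection calls, of which 57 controls were left out. Signals under 1, at 1.85% to 5.49% of the probe sets of an array, were raised to 1 before log2, and nothing else was normalized. This floor and the pseudocount of an alternative both shrink differences of dim probe sets.

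The groups were compared over 31042 probe sets with limma 3.58.1 in R 4.3.3 (eBayes, trend on intensity). The tests were two-sided and, since no pairing is named in the methods, unpaired, and p-values were adjusted over all probe sets by Benjamini-Hochberg. Both groups carry replicate numbers 1 to 3 in the titles. Deviations from the group means correlated at 0.111, 0.231 and 0.163 for same-numbered arrays and from -0.146 to -0.0104 for others, so the numbers were taken to pair the arrays and a second fit took this number as a block. No pair of arrays held identical values (correlations 0.908 to 0.937). Where the labels do not say how cultures were separated, p-values measure only the spread between these samples.

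A symbol comes from the platform annotation (1 symbol for 20826 probe sets, several for 436, none for 9780) and was checked through Entrez ID against RefSeq of GRCr8. The members and lists were chosen with earlier results of these data known. The genes named are all member probe sets, the 5 most like Ptbp2, and Nr2f2. Also named were up to 4 per list by lowest p at or above the median signal. Ccnd1, Ptbp3, Ins1, Ins2, Kif5a, Gcg, Matr3, Mbnl2, Fmr1, the neuron markers and the other Dlg4 and Kif5a probe sets were picked with their values seen. The fits were run on simulated data with planted changes as a check of the code only, and no power is read from it. The alternatives are given in the closing section. Plots used matplotlib 3.10.9 (Python 3.11.15).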

Additional observations from a re-analysis of the deposited data

How the results depend on the processing

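Of the 22 member probe sets 0 passed an adjusted p of 0.05 in each of 15 alternatives, among them the methods' t-test, quantile normalization, median centring, log2(signal + 16), both filters on low signal, pairing by a replicate block, leaving out each array, and the removal of both replicate 2 arrays, which was chosen after seeing the data. Over all probe sets 0 passed in limma without pairing, 5 with a replicate block and 1 with the methods' t-test, and the cause was not tested. Of the log2 fold changes of the members 12 kept their sign in every alternative run, among them those of Ptbp2, Pabpc4 and Elavl2, and 10 did not. No fold change moved by more than the SD between replicates. A change of test, a filter or leaving out 1 array cannot pass that limit, so nothing is read from this for those alternatives. With 1 array left out the list medians ran from -0.073 to 0.091 for neuronal splicing regulators, 0.00067 to 0.077 for hnRNPs, -0.087 to 0.039 for poly(A) and stability proteins, 0.0075 to 0.22 for insulin granule mRNAs, -0.63 to -0.26 for the neuronal mRNAs of PTB and -0.097 to 0.14 for mRNAs bound by ELAVL proteins. Without both replicate 2 arrays the last 2 medians were -0.52 and -0.069. Quantile normalization gave 0.0048 for insulin granule mRNAs, and taking all probe sets of a gene by their median gave 0.027 for neuronal splicing regulators, for which the cause was not tested. Signal over background limits Elavl3, Celf2 1387880_at and Elavl2 1381677_at: the filter at the median signal removed all of these probe sets, and the filter at the Bacillus limit removed Celf2 1387880_at and Elavl3 1382169_x_at.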
